A study of Homo sapiens with 6 samples.

Results

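Kidney lineage transcription factors were followed in 786-O cells, an established human clear cell renal carcinoma line that lacks functional VHL. The factors are 8 genes chosen for their roles in kidney development, PAX2, PAX8, LHX1, WT1, EYA1, EMX2, SOX9 and HNF4A, and they were found by gene symbol among the 58735 genes of the deposited count table. The comparison was between 3 libraries of cells carrying a control hairpin (sh-Control) and 3 libraries of cells carrying a hairpin that targets CBX7 (sh-CBX7). No further treatment is named for either group. The hairpin sequences, the time after delivery and whether the cells were clones are not given in the sources used here. A low count filter kept 5 of the 8 factors among 14573 tested genes. HNF4A, EMX2 and EYA1 did not pass it and are given as counts only.

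The kidney arises from intermediate mesoderm, where PAX2, PAX8 and LHX1 start the renal programme. EYA1, with its homeodomain partners, and WT1 then maintain and commit nephron progenitors, EMX2 acts in the ureteric bud, SOX9 marks bud tips and is turned on again in injured tubule, and HNF4A drives the mature proximal tubule. PAX8 is retained in most clear cell renal carcinomas and is used to recognise them. CBX7 is a chromobox protein that brings Polycomb repressive complexes to chromatin, and genes for developmental transcription factors are classic Polycomb targets in other cells.

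Libraries held 16384151 to 18868874 counts, and levels are given as CPM, counts scaled to library size with TMM, with ± for the SD over n = 3 libraries of a group throughout. CBX7 had 203, 240 and 183 counts in sh-Control and 143, 111 and 142 in sh-CBX7 (log2 fold change -0.71 ± 0.13 SE, adjusted p = 5.41e-05 by edgeR), so the targeted transcript was lower but still present in each sh-CBX7 library. The carcinoma label was checked with 14 markers, of which 11 passed the filter. PAX8 and PAX2, themselves among the factors studied, are in both counts. Of the other markers, the keratin KRT8 (864.6 CPM in sh-Control), the intermediate filament gene VIM (1826 CPM) and CDH6 (167.8 CPM) were abundant. CA9 (1.14 CPM) was low, and AQP1, LRP2 and NDUFA4L2 did not pass. Of 9 immune markers 1 passed, and their summed level was 1.60 to 2.65 CPM in sh-Control and 1.38 to 2.82 CPM in sh-CBX7, with PTPRC, CD3E and MS4A1 at 0 in the 6 libraries. The 8 fibroblast markers summed to 12.3 to 13.6 and 11.7 to 14.0 CPM, the 4 thyroid markers to 1.49 to 2.64 and 2.30 to 2.88 CPM, and the 6 hepatocyte markers to 0.0601 to 0.275 and 0.169 to 0.372 CPM. The sum of the 6 endothelial markers was higher in sh-CBX7, at 3.99 to 5.25 CPM against 2.58 to 3.56 CPM in sh-Control. The defining gene CDH5 was at 0 in the 6 libraries. Called markers of other cell types were PECAM1 (1.47 to 2.38 CPM, a call that 5 of 14 alternative fits ended), LUM (5.04 to 8.35 CPM) and TG (0.377 to 1.20 CPM), which were higher in sh-CBX7, and COL1A1 (3.24 to 1.57 CPM) and PDGFRA (1.05 to 0.276 CPM), which were lower. Their part in the results below was not tested.

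What the CBX7 hairpin did to the identity factors of these cells was asked first. SOX9 rose, PAX8, WT1 and PAX2 fell, and LHX1 did not pass the test. The changes were below 2-fold: SOX9 was 1.74-fold higher, and WT1, PAX2 and PAX8 were 1.42-, 1.41- and 1.25-fold lower in sh-CBX7. Thus 4 of the 5 tested factors (80%) were called, 1 higher and 3 lower, in a comparison in which 53.3% of the 14573 tested genes were called, 26.1% higher and 27.2% lower. Which direction held more of all called genes depended on the scaling: 3799 were higher and 3967 lower with TMM, against 4312 and 3521 with upper quartile scaling, under which the factors still split into 1 higher and 3 lower. In the 5 tested factors the groups did not overlap, as in 59% of tested genes. With 5 genes, these shares set nothing apart from the background. In bulk RNA, fewer cells that express a gene and less of its RNA per cell cannot be told apart.

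**Figure D1:**
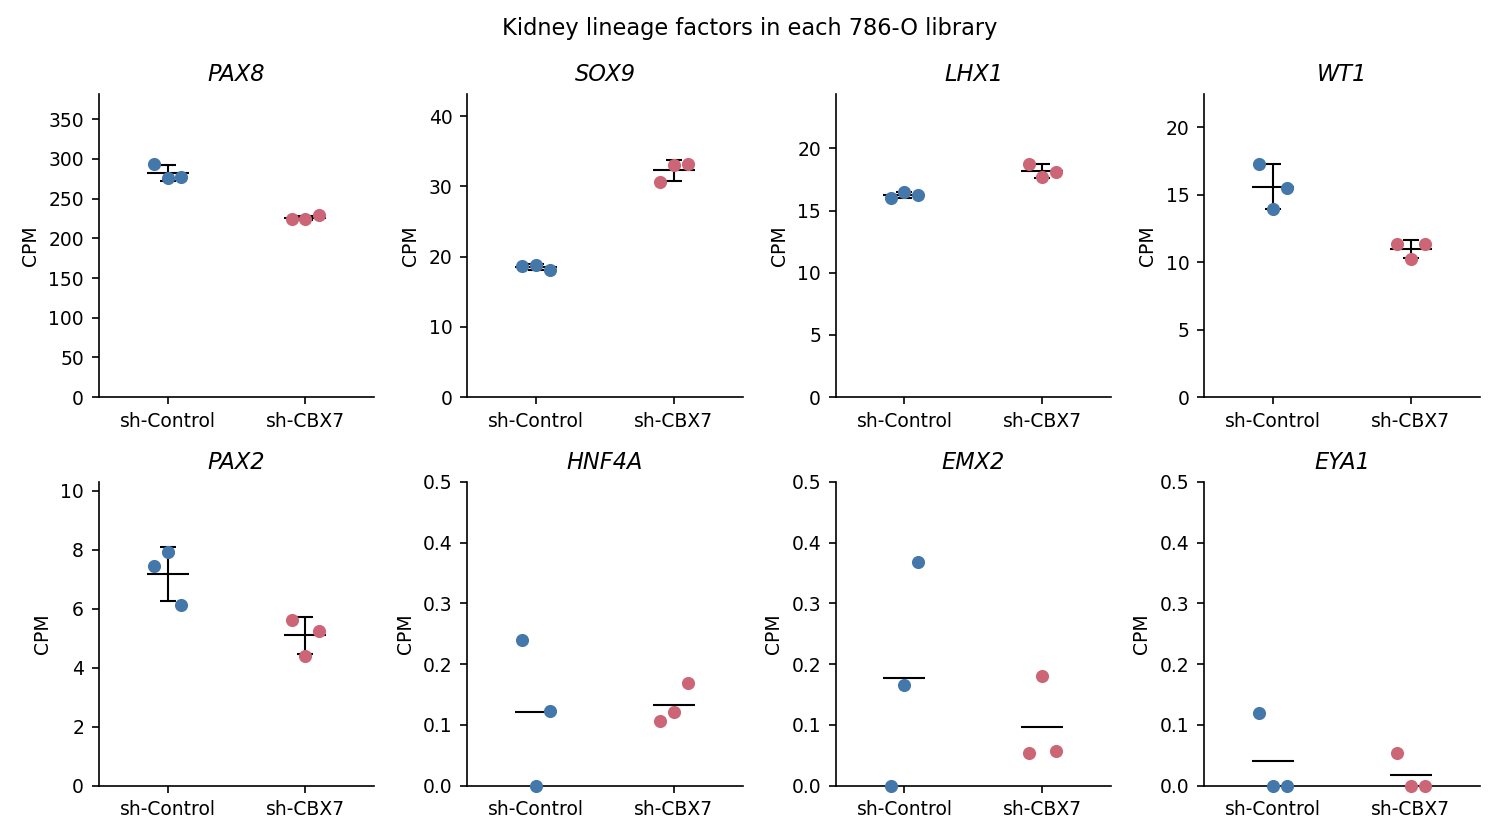
CPM (vertical axes, each from 0) of the 8 factors in each library, with sh-Control in blue and sh-CBX7 in red; horizontal bars are group means and, for the 5 tested factors, error bars are SD (n = 3). SOX9 stood at 18.0 to 18.9 CPM in sh-Control and at 30.6 to 33.2 CPM in sh-CBX7, while HNF4A, EMX2 and EYA1 stayed below 0.5 CPM in both groups.

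PAX8 and PAX2 encode paired-box factors of the same subfamily that act together in the early kidney. PAX8 (ENSG00000125618; GRCh38 chromosome 2, 113215997 to 113278950, minus strand) was by far the most abundant of the factors. Its level was 294.1, 275.6 and 276.9 CPM in the sh-Control libraries and 223.9, 224.0 and 228.9 CPM in the sh-CBX7 libraries, from 4512 to 5013 and from 3710 to 4219 counts. Each sh-CBX7 library lay below each sh-Control library, and the means went from 282.2 ± 10.3 to 225.6 ± 2.85 CPM. The log2 fold change was -0.32, with an SE of 0.05 and an edgeR adjusted p of 2.62e-05, close to the median absolute change of 0.33 over tested genes.

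PAX2 (ENSG00000075891; chromosome 10, 100735603 to 100829941, plus strand) was far lower in count. The sh-Control libraries gave 7.45, 7.92 and 6.14 CPM (124, 144 and 100 counts) and those with the CBX7 hairpin 5.63, 4.41 and 5.25 CPM (106, 73 and 93 counts). The highest sh-CBX7 library lay just under the lowest sh-Control library. Its log2 fold change was -0.49, with an SE of 0.16 and an edgeR adjusted p of 0.0112, larger in size than that of PAX8 but less precise. The call was lost without sh-Control replicate 2 (-0.42, edgeR adjusted p = 0.0519) and without sh-CBX7 replicate 2 (-0.40, edgeR adjusted p = 0.0590). Per length, PAX8 was 33.6 ± 4.36 times as high as PAX2 in sh-Control and 37.8 ± 4.72 times in sh-CBX7, and the libraries' ratios overlapped.

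The start regions of the 3 factors that fell are shown so that they can be compared base by base, since these genes moved in the same direction. Each is the RefSeq window (GRCh38.p14) of 250 bases before to 50 bases after a transcript start, written 5′ to 3′ on the strand of the gene with CG dinucleotides in capitals. RefSeq windows were matched by symbol for 5 of the 8 factors, and where a gene has several (2 for PAX2, 4 for WT1) the one farthest upstream is printed. For PAX2 the printed window ends at 100735445, upstream of where the count table starts the gene, at 100735603.
PAX8, chr2:113278872-113279171, minus strand: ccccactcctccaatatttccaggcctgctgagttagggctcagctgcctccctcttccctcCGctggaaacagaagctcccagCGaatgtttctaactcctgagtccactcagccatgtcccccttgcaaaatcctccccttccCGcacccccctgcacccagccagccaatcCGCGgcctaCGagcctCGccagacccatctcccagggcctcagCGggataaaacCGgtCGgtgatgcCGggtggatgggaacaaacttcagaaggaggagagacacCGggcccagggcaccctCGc
PAX2, chr10:100735146-100735445, plus strand: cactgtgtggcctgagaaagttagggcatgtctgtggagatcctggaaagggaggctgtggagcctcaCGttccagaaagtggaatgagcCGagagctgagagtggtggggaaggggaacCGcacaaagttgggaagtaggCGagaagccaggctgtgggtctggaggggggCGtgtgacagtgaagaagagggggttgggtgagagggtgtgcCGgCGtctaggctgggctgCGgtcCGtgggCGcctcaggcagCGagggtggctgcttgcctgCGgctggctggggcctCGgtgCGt
WT1, chr11:32435490-32435789, minus strand: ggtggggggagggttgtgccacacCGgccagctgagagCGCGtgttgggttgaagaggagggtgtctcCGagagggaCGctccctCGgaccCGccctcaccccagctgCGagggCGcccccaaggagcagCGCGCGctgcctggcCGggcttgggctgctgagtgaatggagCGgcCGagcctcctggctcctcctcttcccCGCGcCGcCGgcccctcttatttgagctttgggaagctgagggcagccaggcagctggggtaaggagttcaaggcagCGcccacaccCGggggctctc

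CG dinucleotides numbered 13 in the PAX8 window, 14 in the PAX2 window and 21 in the WT1 window. Over 35114 windows of the same length the median was 14, and 51.7%, 50.3% and 39.5% of windows held at least as many as PAX8, PAX2 and WT1. The sequence TATAAA was searched on both strands and was in none of the 3 windows (11.5% of all windows hold it). GGGCGG, searched likewise, occurred 1 time in the WT1 window and not in the other two (45% of all windows). CCAAT occurred 2 times in the PAX8 window and in neither of the others (34.6% of all windows). These matches describe letters only.

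WT1 (ENSG00000184937; chromosome 11, 32387775 to 32435630, minus strand) encodes a zinc finger factor needed by nephron progenitors and later by podocytes, the filtering cells of the glomerulus. Its level was 17.3, 14.0 and 15.5 CPM in sh-Control (288, 254 and 253 counts) and 11.4, 10.2 and 11.3 CPM in sh-CBX7 (214, 169 and 201 counts). The groups were separate, with sh-Control spread more widely than sh-CBX7. The log2 fold change was -0.51, with an SE of 0.12 and an edgeR adjusted p of 0.000898.

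WT1 and the antisense RNA WT1-AS (ENSG00000183242) lie head to head: the table places the start of WT1-AS at 32435518, which is position 272 of the WT1 window printed above, counted from 1 at its left end, and the RefSeq start of WT1 is position 251. The table itself starts WT1 farther upstream, at 32435630, which is position 160 of the window. With that start, the WT1-AS and WT1 gene spans share 113 bases. WT1-AS had 1.62, 1.59 and 1.53 CPM in sh-Control (27, 29 and 25 counts) and 2.65, 1.93 and 2.37 CPM in sh-CBX7 (50, 32 and 42 counts). All sh-CBX7 values of WT1-AS lay above the sh-Control values, the reverse of WT1, but the difference did not pass the test (log2 fold change 0.55, with an SE of 0.26 and an edgeR adjusted p of 0.0810). The strand setting of the counting is not given in the sources used here, so reads of WT1 and WT1-AS, and of the other overlapping pairs, may not be separated.

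LHX1 (ENSG00000273706; chromosome 17, 36936785 to 36944612, plus strand) encodes a LIM homeodomain factor of the intermediate mesoderm and early nephron. Its level was 16.0, 16.5 and 16.3 CPM in sh-Control (267, 300 and 265 counts) and 18.8, 17.7 and 18.1 CPM in sh-CBX7 (354, 293 and 321 counts). The groups did not overlap, yet the difference was small and did not pass the test (log2 fold change 0.16, SE 0.10, 95% interval -0.03 to 0.36, edgeR adjusted p = 0.181). LHX1-DT (ENSG00000277268), a divergent noncoding gene on the other strand with 123 bases between it and LHX1, did pass. It went from 12.0, 11.0 and 11.6 CPM to 16.7, 16.9 and 19.4 CPM, a log2 fold change of 0.62, with an SE of 0.11 and an edgeR adjusted p of 5.9e-05. Whether LHX1-DT changed more than LHX1 was not tested.

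SOX9 (ENSG00000125398; chromosome 17, 72121020 to 72126420, plus strand) encodes an SRY-related factor of ureteric bud tips, regenerating tubule and cartilage. The sh-Control libraries gave 18.6, 18.9 and 18.0 CPM (310, 343 and 294 counts) and those with the CBX7 hairpin 30.6, 33.0 and 33.2 CPM (576, 546 and 589 counts). The gap between the groups was larger than the spread within either. The log2 fold change was 0.80, with an SE of 0.09, a 95% interval of 0.62 to 0.98 and an edgeR adjusted p of 1.03e-07, and 85.4% of tested genes changed by less. Its antisense gene SOX9-AS1 did not pass the filter, with 2, 3 and 4 counts in sh-Control and 5, 8 and 7 in sh-CBX7.

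**Figure D2:**
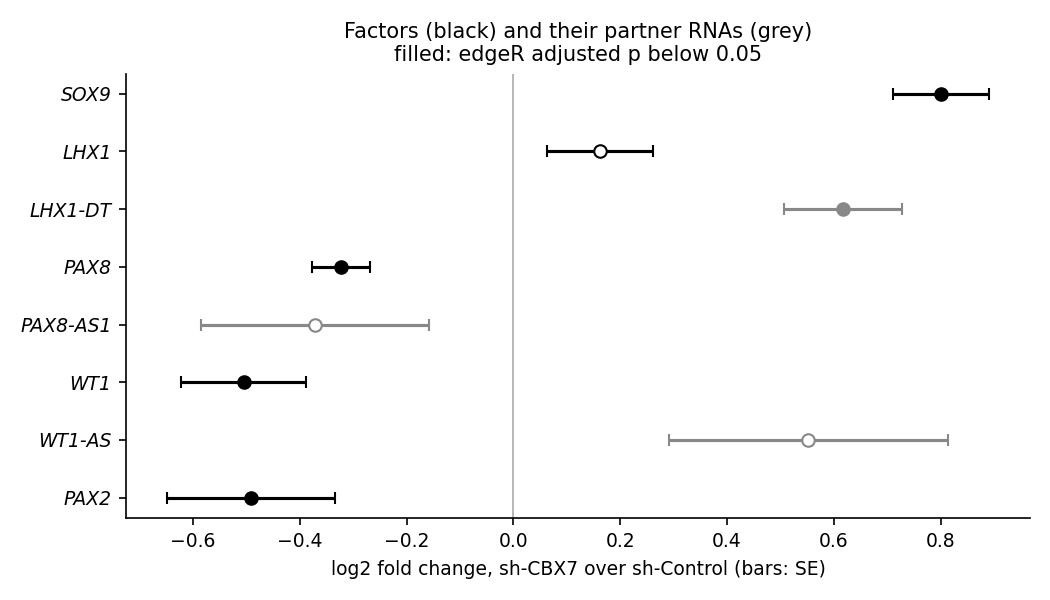
Log2 fold change of sh-CBX7 over sh-Control (horizontal axis) with its SE for the 5 tested factors (black) and 3 partner RNAs (grey), filled where the edgeR adjusted p was below 0.05. WT1 at -0.51 and WT1-AS at 0.55 lie on opposite sides of 0, and LHX1-DT at 0.62 lies to the right of LHX1 at 0.16.

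The remaining 3 factors were at or near the detection limit in both groups. HNF4A (ENSG00000101076; chromosome 20, 44355700 to 44434596, plus strand), the nuclear receptor of the mature proximal tubule, had 4, 0 and 2 counts in sh-Control and 2, 2 and 3 in sh-CBX7. Summed over a group, that is 0.117 CPM of the unscaled library totals (exact Poisson 95% interval 0.0429 to 0.254) and 0.132 (0.0531 to 0.272), intervals that overlap and cover counting error only. EMX2 (ENSG00000170370; chromosome 10, 117542444 to 117549546, plus strand), a homeobox factor of the ureteric bud and urogenital tract, had 0, 3 and 6 counts in sh-Control and 1, 3 and 1 in sh-CBX7. EYA1 (ENSG00000104313; chromosome 8, 71197433 to 71592025, minus strand), a phosphatase and coactivator of progenitors, had 2, 0 and 0 counts and then 1, 0 and 0 counts. The exact Poisson upper bounds for EYA1 were 0.141 and 0.105 CPM. A difference between the groups was not detectable at this depth for HNF4A, EMX2 or EYA1. Of the genes that overlap them, HNF4A-AS1, AL117382.2 and MIR3646 at HNF4A and AC015687.1, AC022858.1 and TRAPPC2P2 at EYA1 had 0 counts in the 6 libraries, and EMX2OS had 1 to 3 counts per library.

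Levels of different genes were compared per length, as CPM per kilobase of the gene length in the table. In sh-Control the order was PAX8 at 38.1 ± 1.40, SOX9 at 4.70 ± 0.11, WT1 at 3.79 ± 0.41, LHX1 at 3.33 ± 0.05 and PAX2 at 1.15 ± 0.15 CPM per kilobase. Neighbours in this order did not overlap, although WT1 and LHX1 came close, at 3.40 to 4.21 and 3.29 to 3.38. In sh-CBX7 the order was PAX8 at 30.5 ± 0.38, SOX9 at 8.20 ± 0.37, LHX1 at 3.73 ± 0.11, WT1 at 2.67 ± 0.16 and PAX2 at 0.816 ± 0.10. LHX1 and WT1 had changed places. HNF4A, EMX2 and EYA1 were below 0.12 CPM per kilobase in each library and their values overlapped. Among tested genes, 90.3% lay below PAX8 in sh-Control and 88.1% in sh-CBX7, and SOX9 went from above 54.4% to above 66.5%.

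**Figure D3:**
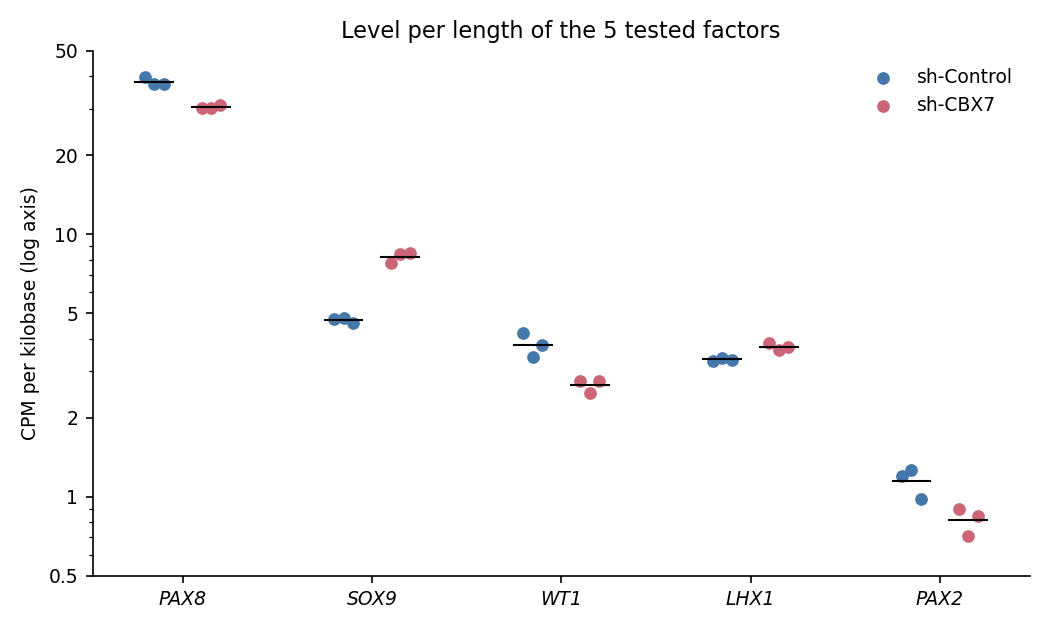
CPM per kilobase (log axis) of the 5 tested factors in each library, with black bars at group means. PAX8 lay above 30 CPM per kilobase in each library, SOX9 moved from 4.70 to 8.20 on average, and WT1 and LHX1 exchanged their order between the groups.

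Ratios within a library do not depend on scaling between libraries. Per length, LHX1 stood to WT1 at 0.781, 0.995 and 0.882 in sh-Control and 1.39, 1.46 and 1.35 in sh-CBX7. The ratio of SOX9 to WT1 had a mean of 1.25 ± 0.15 with the control hairpin and 3.08 ± 0.28 with the CBX7 hairpin, and that of PAX8 to SOX9 fell from 8.11 ± 0.31 to 3.72 ± 0.15. Each of these ratios was separate between the groups. That follows from the CPM values above, in which the genes of each ratio were already separate in opposite directions. Each ratio therefore had to give an exact two-sided permutation p = 0.1, the smallest that 3 against 3 libraries allow. The permutation p adjusted over 5 ratios was 0.125, and the test adds no support of its own. Within the summed counts of the 8 factors, PAX8 took 83.0% in sh-Control and 77.2% in sh-CBX7, and SOX9 took 5.45% and 11.0%.

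Genes that overlap or flank the called factors were listed next. PAX8-AS1 (ENSG00000189223), whose span overlaps that of PAX8 by 60585 bases on the other strand, had a mean of 3.42 ± 0.59 CPM in sh-Control and 2.64 ± 0.07 CPM in sh-CBX7 (log2 fold change -0.37, edgeR adjusted p = 0.152). PSD4, 6.6 kb from PAX8, fell by 0.31 on the log2 scale (edgeR adjusted p = 0.0454), a call that 7 of 14 alternative fits ended. CBWD2, 159 kb away on the other side of PAX8, had -0.25 and was not called (edgeR adjusted p = 0.0943), and its groups overlapped. HIF1AN, the asparaginyl hydroxylase of HIF and the neighbour of PAX2 at 176 kb, had -0.38 (edgeR adjusted p = 7.28e-05). SLF2, 82.6 kb away on the other side, had 0.14 and was not called (edgeR adjusted p = 0.229). The neighbours of WT1 were RCN1, 282 kb away, and the translation factor gene EIF3M, 148 kb away. RCN1 and EIF3M had -0.22 and -0.45 (edgeR adjusted p = 0.00151 and 6.51e-07). On the sides of SOX9, the potassium channel gene KCNJ2 (1940972 bases away) rose by 1.55 (edgeR adjusted p = 2.81e-05). The zinc transporter gene SLC39A11 (519529 bases away) rose by 0.50 (edgeR adjusted p = 1.2e-05). These calls stand beside 53.3% of all tested genes called.

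The genes with the most similar pattern were taken as the 3 protein-coding genes, among 11938 with at least 1 CPM on average, whose centred log2 CPM lay closest over the 6 libraries (root mean square distance). For PAX8 these were FLII, DCAF11 and POLR3E, at distances of 0.0150 to 0.0152. For WT1 they were the DNA polymerase subunit gene POLD1 (0.0229), TIMM50 and TXN2. For SOX9 they were ZNF84 (0.0307), the CDK inhibitor gene CDKN2D and C14orf132. For PAX2 they were GCKR (0.0550), CBWD5 and HLA-DMA. Since 6 libraries in 2 groups leave little to match beyond the group difference, the distances are a description.

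Other transcription factors of kidney development were examined as a list of 65 genes. Of 39 tested members 16 rose, 8 fell and 15 were not called, that is 61.5% called beside 53.3% of all tested genes, with a median log2 fold change of 0.13 beside -0.0060 for all tested genes. PBX2, a partner of HOX proteins, had -0.98 and the inhibitor ID1 -0.78. KLF6 rose by 0.69 and the ETS factor ETV4, a target of RET signalling in the bud, by 0.73. The number that fell was 5 without sh-Control replicate 2 and also without sh-CBX7 replicate 2. Among members outside the naming rule, SIX2, the nephron progenitor factor, and the EYA partner DACH1 had 0 counts in the 6 libraries.

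Inductive signals that these factors control or answer were a list of 43 genes, of which 20 were tested. Here 7 rose, 9 fell and 4 were not called (80% called beside 53.3% of all tested genes, median 0.10). With upper quartile scaling 9 rose and 8 fell. The Wnt receptor FZD8 rose from 40.4 ± 5.59 to 107.7 ± 1.60 CPM (log2 fold change 1.42) and the feedback inhibitor SPRY2 by 0.79. The cytokine LIF, which induces nephron epithelium in culture, fell by 0.66, FGF2 by 0.66 and GFRA1, the co-receptor for GDNF, by 0.48. Of the remaining parts of that circuit, which were named after their values were seen, GDNF rose from 0.571 to 1.36 CPM, and the receptor RET did not pass the filter, with 0, 4 and 2 counts in sh-Control and 0 in each sh-CBX7 library.

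Cofactors of the 8 factors were tested for 30 of 35 genes. Of these, 8 rose, 5 fell and 17 were not called (43.3% called beside 53.3% of all tested genes, median 0.04). With upper quartile scaling 8 rose and 3 fell. PAWR, a WT1-binding protein, rose by 0.48, WTAP by 0.40, SSBP4, which binds the LDB cofactors of LHX1, by 0.47 and the retinoic acid receptor RARA by 0.49, while the acetyltransferase CREBBP fell by 0.60. BASP1, the corepressor of WT1, is outside the naming rule and was at 531.9 and 492.6 CPM (log2 fold change -0.11, edgeR adjusted p = 0.0692).

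Genes linked to PAX2 and PAX8 split evenly: of 25 tested of 40 listed, 9 rose, 9 fell and 7 were not called. That is 72% called beside 53.3% of all tested genes, with a median of 0.07. The factors WT1, which fell, and LHX1, which was not called, are themselves in this list and in these counts. CDH6, a cadherin of the early nephron, fell from 167.8 ± 5.71 to 93.1 ± 4.86 CPM, which is -0.85 on the log2 scale, and CCND1 by 0.50. ARNTL2 rose by 0.96 and the apoptosis inhibitor BIRC3 by 0.70. The thyroid genes TG, SLC5A5 and TSHR, which PAX8 activates in thyroid, stayed low, and of these only TG passed the filter: it rose from 2, 5 and 12 to 17, 22 and 24 counts.

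Genes that SOX9 activates in cartilage and other tissues did not move in 1 direction. Of 16 tested of 27, 5 rose, 3 fell and 8 were not called (50% called beside 53.3% of all tested genes, median 0.15). PTHLH, the parathyroid hormone-related protein gene, rose by 0.56. The surface glycoprotein CD24 fell from 960.6 ± 23.3 to 438.0 ± 20.4 CPM (-1.13), COL9A2 by 0.62 and MATN3 by 0.92. The cartilage genes COL2A1, COL9A1, HAPLN1 and CNMD, named after their values were seen, had 0 counts in the 6 libraries, and ACAN, the cartilage proteoglycan gene, had 1, 0 and 2 counts in sh-Control and 11, 3 and 12 in sh-CBX7.

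Podocyte genes of the WT1 programme were tested for 18 of 35, with 4 higher, 6 lower and 8 not called. That is 55.6% called beside 53.3% of all tested genes, with a median of -0.03. With upper quartile scaling 6 were higher and 6 lower. PODXL, the sialomucin of the podocyte surface, rose from 7.97 ± 0.40 to 34.8 ± 1.31 CPM (log2 fold change 2.13), as did ETS1 (0.80) and FOXC2 (0.62). MYO1E and KIRREL1, of the podocyte foot process, fell by 0.52 and 0.36. The slit diaphragm gene NPHS1, named after its values were seen, had 2 counts in a single sh-Control library and 0 in the others.

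In the proximal tubule list, which HNF4A drives in kidney, 24 of 57 genes were tested, with 7 higher, 6 lower and 11 not called. That is 54.2% called beside 53.3% of all tested genes, with a median of -0.03. The scaffold gene PDZK1 fell from 35.2 ± 5.33 to 10.6 ± 1.75 CPM (log2 fold change -1.73). The brush border peptidases MME and ANPEP rose by 0.81 and 0.44, SERPINA1 by 0.46 and SERPINA6 by 1.11. Without sh-CBX7 replicate 1 the split was 6 higher and 3 lower. Of the 57 genes 13 had 0 counts in the 6 libraries, as had the transporters SLC22A6 and SLC22A8 among them.

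Markers of other nephron segments passed the filter in 7 of 26 genes, with 3 higher, 2 lower and 2 not called. That is 71.4% called beside 53.3% of all tested genes, with a median of 0.25. The keratin KRT7 rose by 1.15, KRT19 by 0.23 and the proton pump subunit ATP6V0D2 by 2.30, from 0.413 to 2.05 CPM. The carbonic anhydrase CA2 fell by 0.90 and the sodium channel subunit SCNN1A by 1.77. Some genes are in more than 1 list, so the lists are not independent of each other.

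**Figure D4:**
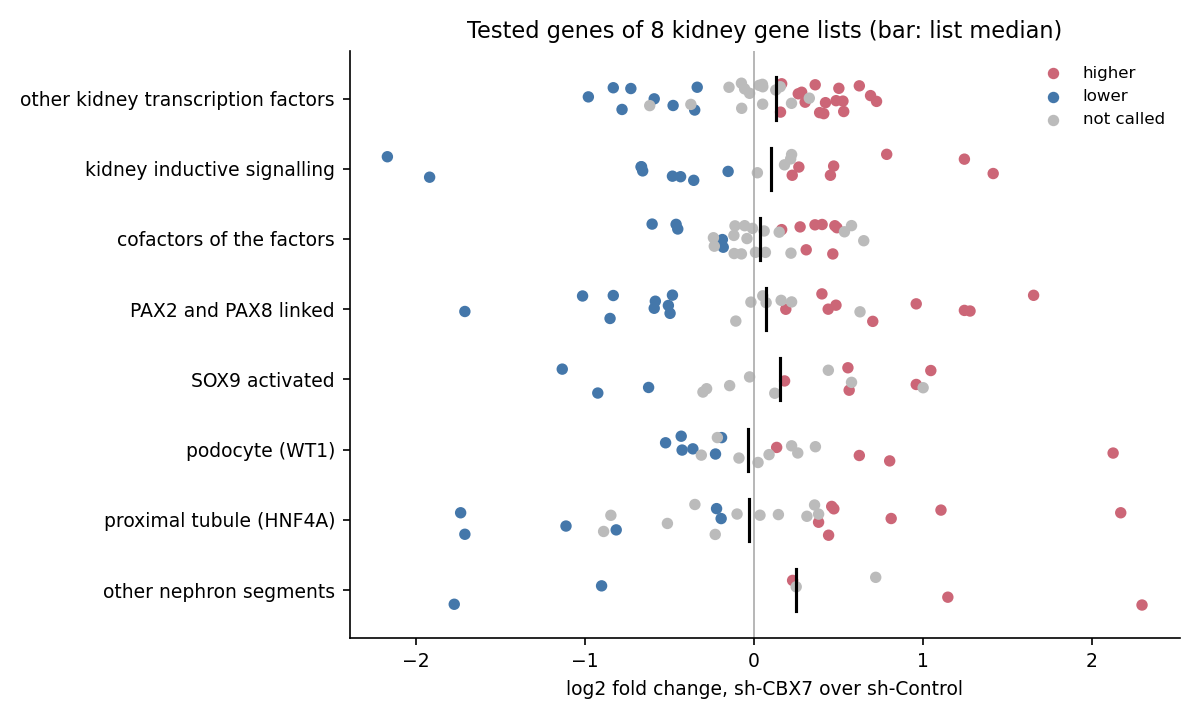
Log2 fold change of sh-CBX7 over sh-Control (horizontal axis) for the tested genes of the 8 lists, coloured by call, with a black bar at each list's median. List medians lay between -0.03 and 0.25, and in each list called genes lay on both sides of 0.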

How the data were processed

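Poly-A RNA of 6 libraries of 786-O cells was sequenced with a directional kit, per the labels' protocols. The deposited values are raw read counts per gene; the tools listed per the submitters' processing notes were featureCounts 1.5.0-p3, HISAT2 2.0.5, Trimmomatic and FastQC, with no roles, order or strand setting. Those notes name hg19, but 58724 of 58735 genes (99.98%), the 8 factors included, match GENCODE 29 on GRCh38 at both ends, so positions are on GRCh38. Columns named siCBX7 and control were matched to the sh-CBX7 and sh-Control labels by target and number. The columns write si where the labels write sh, a difference that the sources used here do not settle. The word hairpin follows the labels.

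Counts were filtered with filterByExpr, scaled with TMM and tested with the quasi-likelihood test of edgeR 4.0.16 (R 4.3.3), unpaired, adjusted by Benjamini-Hochberg over 14573 genes and called below 0.05. The SE is the log2 fold change divided by the square root of F, and the 95% intervals use it with a normal quantile. The code was tested on simulated data. Within-group library pairs differed by 2.84 to 9.31 chi-square units per gene, above sampling noise. The highest values, 9.31 and 5.81, were those of the pairs with sh-Control replicate 1. Each library was counted as 1 sample, which these values do not show to be independent. Whether the libraries are of separate cultures is not given, so the p-values reflect variation among these libraries alone, possibly technical. The deposited gene length in bases, a column of no stated origin, gave levels per kilobase.

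The factors and the lists were chosen with earlier results of these data known. The text names the 8 factors, CBX7, overlapping, antisense and flanking genes, the 3 genes of most similar pattern, cell type markers and up to 5 called genes per list by smallest p; others are marked. Some genes that this rule names are not reported here. Alternatives were DESeq2 1.42.0, limma voom (limma 3.58.1), other scalings and filters, the replicate number as a block and leaving out each library.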

Additional observations from a re-analysis of the deposited data

How the results depend on the processing

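SOX9, PAX8, WT1 and CBX7 kept direction and call under each of 14 alternatives, and LHX1 stayed uncalled (log2 fold change 0.14 to 0.21, edgeR, DESeq2 or limma adjusted p 0.0820 to 0.358). SOX9 ranged from 0.78 to 0.85, PAX8 from -0.34 to -0.27 and WT1 from -0.58 to -0.42. PAX2 ranged from -0.59 to -0.40 and lost its call without 1 library in 2 fits, in which its log2 fold change was -0.415 and -0.402; leaving out each library gave -0.594 to -0.402 for it. Without 1 library, 5 to 8 other kidney transcription factors fell, and 3 to 5 proximal tubule genes; upper quartile scaling left 3 cofactors lower. A fit with a replicate block called 3972 genes higher and 4126 lower, among them 1 and 3 of the factors. Same-numbered libraries shared deviations at correlations of 0.0353 to 0.0614, so the numbers were not taken as pairs, although each library correlated best with its own number. Of 125 other called genes examined (lists, neighbours, partners, pattern genes), 99 kept the call under each alternative, 26 lost it under at least 1 and 0 reversed. Causes were not tested. Depth limits HNF4A, EMX2 and EYA1, which had 0 to 6 counts per library.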
